A study of Homo sapiens with 8 samples.

Results

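The EGF receptor family and its ligands were examined in human pancreatic progenitors (PPs), with acetylation of histone H3 at lysine 27 (H3K27ac), a mark of active promoters and enhancers, as the readout. The 10 genes, of 20033 protein-coding genes in all, are the receptors EGFR, ERBB2, ERBB3 and ERBB4 and the ligands EGF, AREG, EREG, TGFA, HBEGF and BTC. They were chosen by family membership when earlier results of these peaks were known, among them an intronic region of EGFR that was called only after I-BET151, so the values below are a description and carry no test. Every peak in a gene body or within 50 kb of it was taken. This gave 29 of 15752 merged regions (0.184%), where a region is the union of peaks of the 4 H3K27ac libraries that share at least 1 bp.

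The PPs of all libraries came from MEL1, a human embryonic stem cell line in wide use, and were grown in EF6 medium. The study's methods name the line MEL1 INS GFP/W, a form with a GFP reporter at the insulin gene. This medium holds EGF at 50 ng/ml, bFGF at 10 ng/ml and the TGFβ receptor inhibitor 616452 at 10 μM. One group received the solvent DMSO and the other 1 μM I-BET151 for 7 days. I-BET151 keeps BET proteins from reading acetylated lysines, by occupying their bromodomains. Each group had 2 H3K27ac libraries, and 4 input libraries of chromatin without immunoprecipitation served as background. Both groups were thus cultured with an EGFR ligand, and the control is not a state without EGF. All libraries came from a single cell line, and the labels do not say whether replicates were separate cultures, so the spread between them may be technical.

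EGFR and its relatives are receptor tyrosine kinases that pair with each other once a ligand binds, and they pass the signal to the RAS-MAP kinase and PI3K-AKT pathways. EGF, TGFA and AREG bind EGFR, whereas HBEGF, EREG and BTC bind both EGFR and ERBB4. ERBB2 has no known ligand of its own and acts as a partner, ERBB3 binds neuregulins and has little kinase activity, and ERBB4 binds neuregulins as well. Most of the ligands are made as membrane proteins and are cut free by proteases such as ADAM17. In the pancreas, EGF family signals are known to support the growth of progenitors, and EGF is commonly added to their culture media.

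The 4 lists held 12312 to 14248 peaks, and 7.76 to 9.84 M ChIP reads (M, 1000000 reads) stood behind each list. Pancreatic progenitor markers had a peak within 3 kb of a transcription start in all 4 libraries for 9 of 10 genes, the exception being PTF1A, with none. The lists of endocrine (5 genes), pluripotent (2 genes), hepatic (2 genes) and mesenchymal (3 genes) markers had such a peak at 0 genes in any library, whereas the intestinal gene CDX2 had one in all 4. In bulk chromatin, fewer cells that carry a mark and less of the mark per cell cannot be told apart.

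EGFR had the most changed regions of the family. A gained region had a peak in each I-BET151 library and none in DMSO, and a lost region had a peak in each DMSO library and none after I-BET151. EGFR had 3 gained and 2 lost regions among its 9. At least 3 gained regions were found at 37 of 15190 genes with a peak in their window, or 0.244%, and at least 1 gained and 1 lost region at 144, or 0.948%. These shares are given as background only, since EGFR was listed with the gained region known. The cut of 3 is EGFR's own count, in a window of 293 kb, and 2 of its gained regions lay 219 bp apart. With peaks within 500 bp merged, the whole family had 2 gained regions. The sequences of the 5 changed EGFR regions are shown because they are the stretches where a peak was called in both libraries of a single group only. Each line gives 300 bases around the summit of the region's peak with the lowest p-value, from the plus strand of hg38, the strand of the gene, and capitals mark a match to a motif on either strand.
EGFR gained, intron 1, chr7:55086506-55086805: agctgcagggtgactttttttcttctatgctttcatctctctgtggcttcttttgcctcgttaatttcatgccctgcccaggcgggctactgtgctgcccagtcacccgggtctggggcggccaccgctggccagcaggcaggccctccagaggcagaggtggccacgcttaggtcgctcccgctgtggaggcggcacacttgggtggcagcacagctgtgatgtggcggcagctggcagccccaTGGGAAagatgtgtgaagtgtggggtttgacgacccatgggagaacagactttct
EGFR gained, downstream, first, chr7:55254593-55254892: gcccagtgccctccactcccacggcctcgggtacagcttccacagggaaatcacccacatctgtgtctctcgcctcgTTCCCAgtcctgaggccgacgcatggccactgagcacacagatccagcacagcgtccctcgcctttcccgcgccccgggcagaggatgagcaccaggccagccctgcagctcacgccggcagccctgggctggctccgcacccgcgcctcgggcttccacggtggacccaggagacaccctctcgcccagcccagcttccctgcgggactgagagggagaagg
EGFR gained, downstream, second, chr7:55255110-55255409: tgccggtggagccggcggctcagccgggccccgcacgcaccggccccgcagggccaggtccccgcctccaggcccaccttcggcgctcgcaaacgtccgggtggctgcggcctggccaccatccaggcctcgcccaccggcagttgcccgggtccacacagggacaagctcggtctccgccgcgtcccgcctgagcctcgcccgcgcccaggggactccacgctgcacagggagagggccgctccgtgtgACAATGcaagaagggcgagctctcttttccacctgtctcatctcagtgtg
EGFR lost, intron 1, chr7:55133597-55133896: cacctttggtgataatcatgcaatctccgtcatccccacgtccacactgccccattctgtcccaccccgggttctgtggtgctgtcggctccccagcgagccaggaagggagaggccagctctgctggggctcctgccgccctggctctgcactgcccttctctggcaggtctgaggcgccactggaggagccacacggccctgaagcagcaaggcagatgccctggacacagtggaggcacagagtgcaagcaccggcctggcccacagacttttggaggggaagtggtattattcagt
EGFR lost, intron 19, chr7:55178378-55178677: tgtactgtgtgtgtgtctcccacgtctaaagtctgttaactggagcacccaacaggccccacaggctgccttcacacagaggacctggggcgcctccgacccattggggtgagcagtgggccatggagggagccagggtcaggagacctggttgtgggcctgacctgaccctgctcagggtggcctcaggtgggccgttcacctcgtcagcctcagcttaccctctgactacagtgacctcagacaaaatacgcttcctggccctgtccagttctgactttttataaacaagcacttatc

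The motifs searched were TGANTCA for AP-1, ACAATG for SOX factors, TGTTTAC for FOXA factors, AGATAA for factors of the GATA family, ATCGAT and also ATCAATA for HNF6, TGGGAA for RBPJ and GGAATG for TEAD factors. The intronic gained region and the first downstream one held 1 RBPJ match each, and 20.0% of all 15752 region windows held at least 1. The other downstream gained region held 1 SOX match, a motif present in 4.25% of all windows. The 2 lost windows held no match to any of the motifs. GC content was 60.3, 68.7 and 72.3% in the gained windows and 62.3 and 57.7% in the lost ones, against a median of 64.3% for windows more than 3 kb from a start. A match is a description of letters and says nothing of binding.

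EGFR lies on chromosome 7 from 55019017 to 55211628 on the plus strand (hg38). Its 5 changed regions lay 14.8 to 91.5 kb from the nearest of its 6 starts. Distances from the EGFR start below refer to its main transcript. The first gained region (55086430 to 55086875) lay in intron 1, 67.6 kb from the main start and 23.1 kb from the nearest EGFR start. The signal at a peak is given as its height, the ChIP reads over the summit per 1000000 ChIP reads (RPM), a value per position that does not depend on gene length. The intronic region reached 25.4 RPM (197 reads) in I-BET151 replicate 1 and 29.4 RPM (236 reads) in replicate 2. No peak was called there in either DMSO library, where a height of 8.29 and 8.33 RPM would have passed the authors' threshold at the highest local input level seen in the libraries that called it. The lower of the called heights was 3.05 times the higher of these limits, so at that input level a peak as high as in I-BET151–treated PPs would have been listed in DMSO. An uncalled region may still be acetylated below its limit.

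The other gained regions lay beyond the 3′ end of EGFR, 42.9 and 43.4 kb downstream and 219 bp apart, and no other protein-coding start was nearer than that of EGFR. The first of them (55254566 to 55254846) reached 11.1 and 15.1 RPM in the I-BET151 libraries. This was 1.28 times the DMSO limit of 8.67 RPM at its lowest, so a modestly lower height would not have been called. The second (55255066 to 55255446) reached 21.0 and 21.2 RPM, at least 2.42 times the same limit. All 3 gained regions of the family were thus at EGFR, and none was found at the other 9 genes.

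The lost regions of EGFR were lower than the intronic gained region. One (55133576 to 55133939) lay in intron 1, 114.7 kb from the start, with 13.2 and 13.9 RPM in DMSO replicates 1 and 2. The limits in the I-BET151 libraries were 7.99 and 8.34 RPM. The second (55177850 to 55178691) lay in intron 19, with 9.42 and 10.5 RPM in DMSO and limits of 3.74 and 4.23 RPM after I-BET151. The summit of DMSO replicate 2 in this region lay outside the printed window. Another 2 regions, in introns 1 and 21, were called in a single I-BET151 library each and in no DMSO library.

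At the regions called in all 4 libraries, EGFR stood higher after I-BET151. Its start region (55018381 to 55020511), which spans exon 1, had 38.1 and 34.4 RPM in DMSO and 45.1 and 45.2 RPM after I-BET151. The groups did not overlap, and the ratio of the means was 1.25 (log2 0.32). The authors' fold over the local input also did not overlap, at 6.25 and 5.97 in DMSO and 6.97 and 7.59 after I-BET151. A shared region in intron 1 (55078037 to 55079394), 59.3 kb from the start, had 13.9 and 16.5 RPM in DMSO and 21.7 and 22.6 RPM after I-BET151, a ratio of 1.46 (log2 0.54). This ratio lay at percentile 96.0 of the regions called in all libraries, and that of the start at percentile 88.8. The start peak was 1950 to 2122 bp wide, wider than at least 97% of the peaks at starts.

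**Figure D1:**
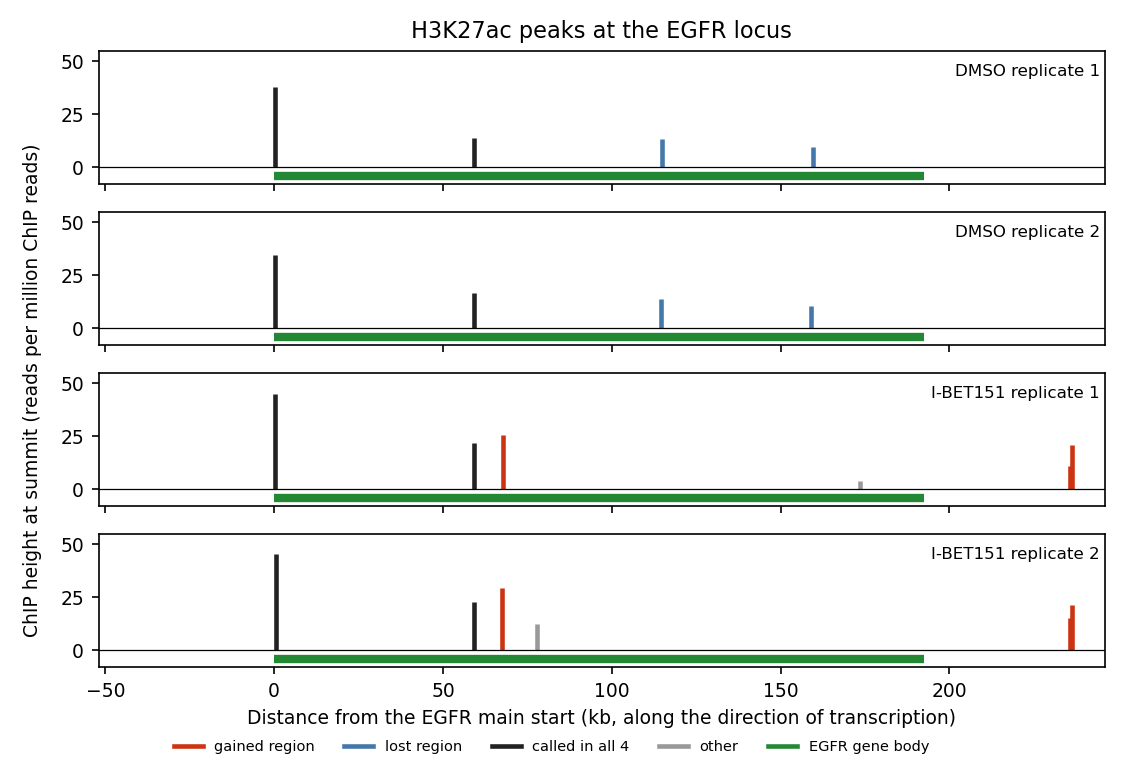
H3K27ac peaks at EGFR in the 4 libraries, with distance from the start of the main transcript (kb) on the horizontal axis and height at the summit (RPM) on the vertical axis. Each bar is 1 peak, and the intronic gained region stands at 25.4 and 29.4 RPM in the I-BET151 libraries where the DMSO libraries have no bar.

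The promoter of the main EGFR transcript is shown because the start peak was higher in both I-BET151 libraries. It is the 250 bases before the RefSeq start on the plus strand (GRCh38.p14), and capitals mark a GC box.
EGFR promoter, chr7:55018767-55019016: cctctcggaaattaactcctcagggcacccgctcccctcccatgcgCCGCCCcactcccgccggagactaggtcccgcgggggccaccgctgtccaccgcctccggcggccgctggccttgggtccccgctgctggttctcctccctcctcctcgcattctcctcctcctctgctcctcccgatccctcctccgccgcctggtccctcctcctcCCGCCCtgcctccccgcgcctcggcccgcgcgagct

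The GC box (GGGCGG, the motif of SP family factors) occurred 2 times, and 42.6% of 35116 RefSeq promoters held at least 1. GC content was 73.6%. This promoter had no match to a TATA box (TATAAA) or to a cAMP response element (CRE, TGACGTCA), which were found in 10.7 and 1.65% of promoters. A second RefSeq entry of EGFR (chr7:55109589-55109838), where no library had a peak, held 2 TATA boxes, 2 AP-1 matches, 1 RBPJ match and 1 TEAD match, and no GC box. The GC box, TATA box and CRE motifs were chosen after the peaks had been seen.

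ERBB2, the shared partner of the other receptors, kept its 2 start regions in all 4 libraries, and the changes around it were at its neighbours. The gene lies on chromosome 17 from 39687914 to 39730426 on the plus strand. Its upstream start (39687706 to 39688248) had 38.7 and 35.7 RPM in DMSO and 43.1 and 45.4 RPM after I-BET151. The start of its main transcript (39699944 to 39700887) had 38.9 and 35.1 RPM in DMSO and 40.6 and 41.6 RPM after I-BET151. Both were higher in each I-BET151 library than in either DMSO library, with ratios of 1.19 and 1.11. At the upstream start the direction depended on the scale. The authors' fold enrichment over the local input was 16.9 and 17.4 in DMSO and 12.0 and 13.6 after I-BET151, a ratio of 0.744, where the input level was 6 and 5 reads in DMSO and 10 and 8 after I-BET151. At the main start the folds of the groups overlapped.

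Downstream of ERBB2, every region called in both DMSO libraries was lower in height after I-BET151 or no longer called. By the authors' fold, of the 3 regions called in all 4 libraries here, only a GRB7 region was lower without overlap. At the start of MIEN1, which overlaps the end of ERBB2, heights were 29.1 and 25.9 RPM in DMSO and 18.0 and 21.0 RPM after I-BET151, a ratio of 0.710. GRB7, which encodes an adaptor that binds ERBB2, had a lost region at its first start (39738000 to 39738508) with 20.1 and 18.9 RPM in DMSO. The I-BET151 limits there were 6.70 and 7.22 RPM, and the lower DMSO height was 2.62 times the higher limit. A neighbouring GRB7 region was called in all 4 libraries, at 20.2 and 19.8 RPM in DMSO and 13.1 and 13.7 RPM after I-BET151. The second lost region of GRB7 (39740378 to 39740722) was weaker, with 6.66 and 6.40 RPM in DMSO. A region 11.9 kb from the GRB7 start had a height ratio of 0.716, while its folds were 3.56 and 4.13 in DMSO and 3.00 and 5.52 after I-BET151. Upstream of ERBB2, the STARD3 region and 2 regions nearest to PNMT were called in 1 to 3 libraries and belonged to neither class.

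**Figure D2:**
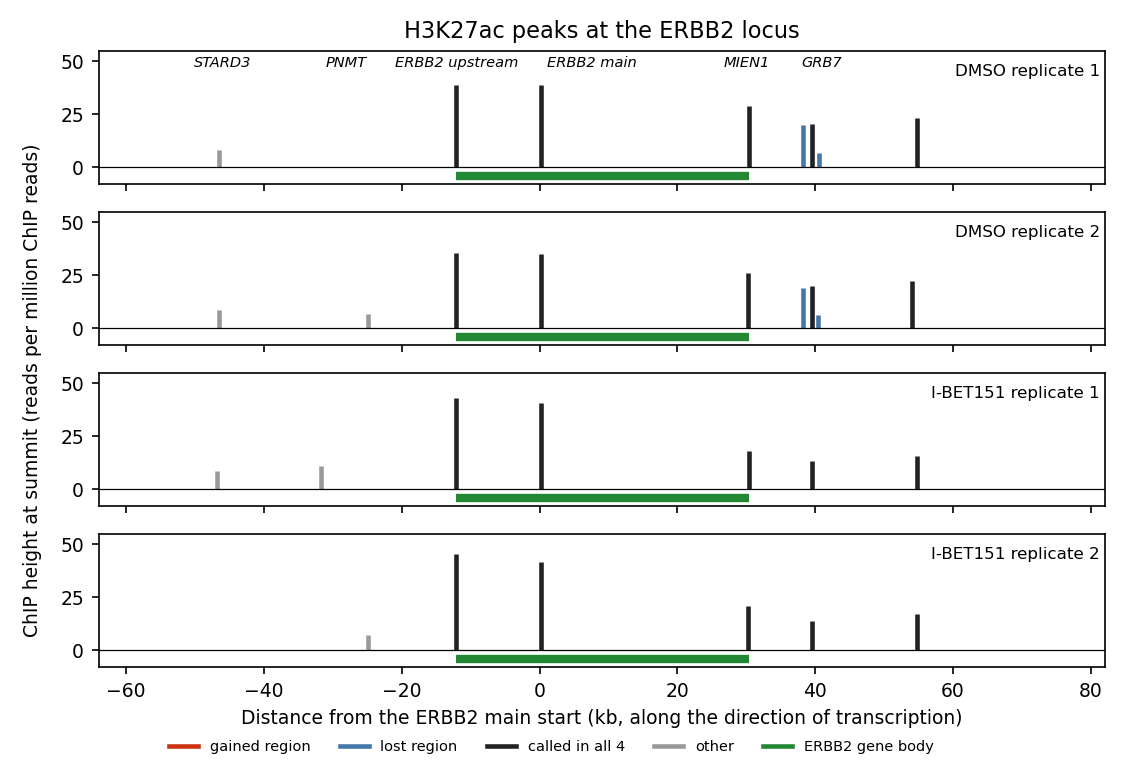
H3K27ac peaks around ERBB2 in the 4 libraries, with distance from the main start (kb) on the horizontal axis and height at the summit (RPM) on the vertical axis. The 2 ERBB2 start peaks stand in every library, and the regions at GRB7 are lower in height or not called in the I-BET151 libraries.

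ERBB3, the neuregulin receptor with little kinase activity, had the highest start of the family in DMSO. It lies on chromosome 12 from 56076799 to 56103505 on the plus strand. Its start region (56079004 to 56080818) had 52.5 and 44.2 RPM in DMSO and 40.0 and 43.2 RPM after I-BET151. The groups did not overlap, but the closest libraries, at 44.2 and 43.2 RPM, differed by less than the DMSO libraries did between themselves. The authors' fold also did not overlap, at 8.92 and 8.60 in DMSO and 7.20 and 7.74 after I-BET151. Among the start regions of each library, the height lay at percentiles 98.2 and 98.5 in DMSO and 83.7 and 85.5 after I-BET151. The ratio was 0.860 (log2 −0.22), at percentile 22.9 of the shared regions. The other 5 regions of its window lay nearest to RPS26, PA2G4, ZC3H10, ESYT1 and MYL6B. ERBB4, the other neuregulin receptor, had 0 peaks in any library over a window of 1263 kb.

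Among the ligands, TGFA had the only start called in all 4 libraries. TGFA binds EGFR and lies on chromosome 2 from 70447284 to 70554193 on the minus strand. Its start region (70553176 to 70554444) had 30.9 and 28.4 RPM in DMSO and 27.2 and 31.2 RPM after I-BET151, so the groups overlapped (ratio 0.986). The authors' fold at this region was 4.32 and 3.78 in DMSO and 6.10 and 6.02 after I-BET151. The input level was 21 reads in both DMSO libraries and 12.7 and 13 reads after I-BET151, and its part in the fold was not tested.

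AREG, which encodes the EGFR ligand amphiregulin, was the member whose start was lost. It lies on chromosome 4 from 74445136 to 74455005 on the plus strand. Its start region (74445041 to 74445494) had 20.0 RPM (159 reads) in DMSO replicate 1 and 18.4 RPM (181 reads) in replicate 2, and no peak in either I-BET151 library. The limits there were 13.9 and 14.3 RPM, so the lower DMSO height was 1.29 times the higher limit, and a moderately lower height would also have gone uncalled. A second lost region lay 31.3 kb upstream of AREG and 24.8 kb downstream of EREG. It rested on few reads, with 22 reads in DMSO replicate 1 (exact Poisson 95% interval 13.8 to 33.3 reads, counting error only) and 30 reads in replicate 2 (20.2 to 42.8). Its lower height was 1.17 times the limit. The AREG promoter is shown because AREG was the only ligand with a start called in both libraries of one group and in neither of the other. It is the 250 bases before the RefSeq start on the plus strand (GRCh38.p14), and capitals mark motif matches.
AREG promoter, chr4:74444886-74445135: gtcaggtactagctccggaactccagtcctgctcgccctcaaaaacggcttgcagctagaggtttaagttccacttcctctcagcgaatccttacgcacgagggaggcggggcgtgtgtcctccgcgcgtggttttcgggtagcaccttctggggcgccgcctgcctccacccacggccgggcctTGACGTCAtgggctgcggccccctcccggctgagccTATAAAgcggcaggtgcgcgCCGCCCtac

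The AREG promoter held 1 GC box, 1 TATA box and 1 CRE, the last of which was present in 1.65% of promoters.

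The remaining ligands had little or no called H3K27ac. HBEGF, the heparin-binding ligand on chromosome 5 from 140332843 to 140346603, on the minus strand, had a start peak of 13.3 RPM (131 reads) in DMSO replicate 2 alone. The other libraries would have needed 9.92 to 10.6 RPM. EREG, which encodes epiregulin, had no peak at its own start, and its only region was the distal one shared with AREG. EGF and BTC had 0 peaks in any library. For such genes the precision of the lists matters. A height of 1.12 to 1.42 RPM would have passed at the genome-wide input level, but 8.64 to 10.3 RPM was needed at the median input level of start peaks. The input level at starts without a peak is not known, so a weak mark there may have been missed.

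ERBB3 had the highest start in DMSO, whereas EGFR and the upstream start of ERBB2 were highest after I-BET151. In DMSO the order ran from ERBB3 (48.4 ± 5.87 RPM; SD, n = 2 here and below) to ERBB2 (37.2 ± 2.13 upstream and 37.0 ± 2.74 at the main start), EGFR (36.2 ± 2.62), TGFA (29.6 ± 1.80) and AREG (19.2 ± 1.12). The ERBB2 and EGFR starts did not differ beyond their spread. After I-BET151 the order ran from EGFR (45.1 ± 0.03) and the upstream start of ERBB2 (44.2 ± 1.66) to ERBB3 (41.6 ± 2.27), the main start of ERBB2 (41.1 ± 0.669) and TGFA (29.2 ± 2.85). EGFR and the upstream start of ERBB2 did not differ beyond their spread after I-BET151 either. The starts of EGFR, ERBB2 and ERBB3 stood above those of the ligands in every library.

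**Figure D3:**
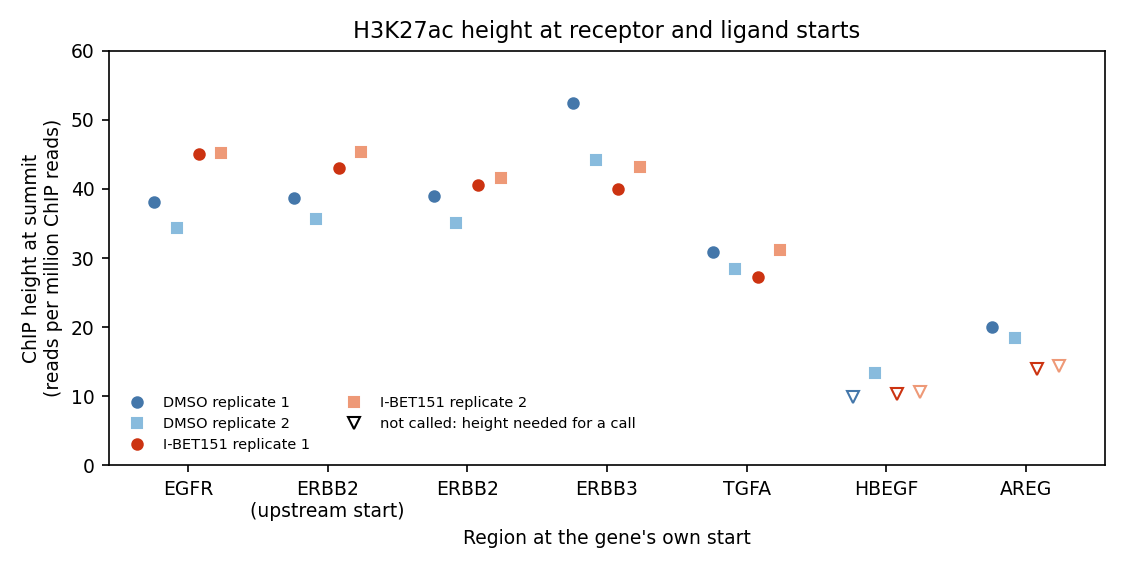
Height at the summit (RPM) of the start regions of the family members in the 4 libraries, with each filled point 1 library and open triangles the height needed where no peak was called. By height EGFR and both ERBB2 starts sit higher after I-BET151 (the upstream ERBB2 start is lower by the authors' fold), ERBB3 lower, TGFA overlaps, and AREG has points in DMSO alone.

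Counted over the family, 12 of 29 regions were called in all 4 libraries (41.4%), 3 were gained (10.3%), 6 were lost (20.7%) and 8 belonged to none of these classes. The count of gained regions was 5 without I-BET151 replicate 2 and 2 when peaks within 500 bp were merged. Over all regions 2.81% were gained and 8.6% were lost. Of the lost regions, 4 lay nearest to a member (2 at EGFR and 2 at AREG) and 2 nearest to GRB7. Of the 12 shared regions, 4 were higher by height in both I-BET151 libraries than in either DMSO library, and all 4 were at EGFR or ERBB2. Another 6 were lower without overlap, of which 5 were nearest to other genes and 1 was the ERBB3 start. Over 10224 shared regions with heights, 29.8% were higher and 31.4% lower in this sense. This split depended on the scale. By the authors' fold 4 regions were higher without overlap, 2 at EGFR and those at the starts of TGFA and ESYT1, and 3 were lower, at the upstream start of ERBB2, at GRB7 and at the start of ERBB3. Over the same shared regions 25.5% were higher and 16.4% lower by fold. The median log2 ratio of heights was −0.08 for the 12 regions and 0.00 for all.

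**Figure D4:**
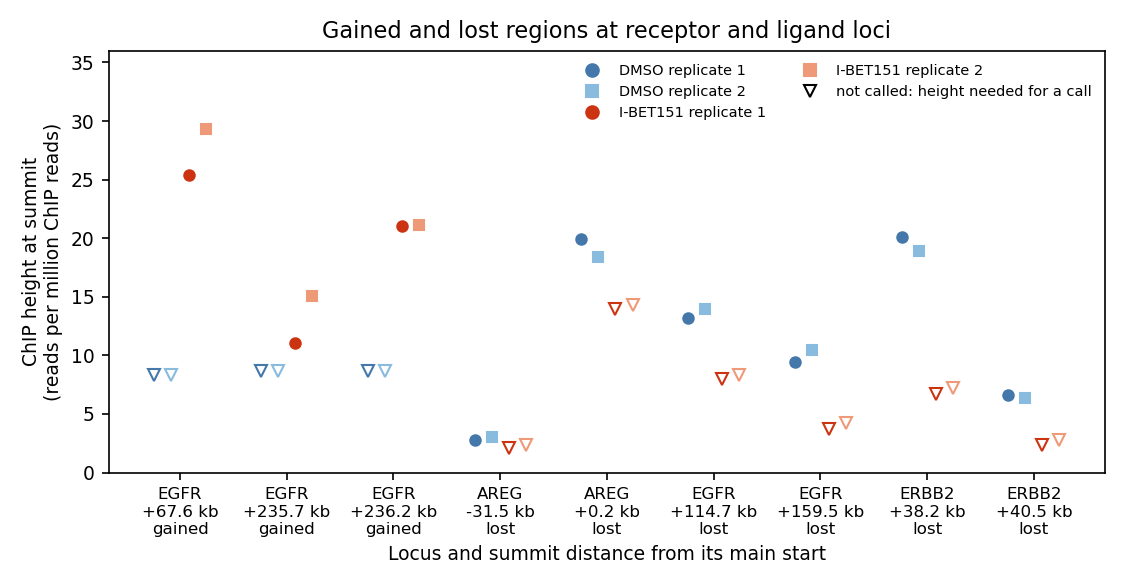
Height at the summit (RPM) of the 3 gained and 6 lost regions, with each filled point 1 library and open triangles the height needed in the libraries without a peak. The intronic EGFR region stands farthest above its limits, and the distal AREG region lies just above them.

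The length covered by peaks was also summed by locus. EGFR had 4.157 and 3.919 kb in DMSO and 4.866 and 4.864 kb after I-BET151, a difference of 0.827 kb that fell to 0.201 kb with windows of 10 kb. TGFA had 1.152 and 1.144 kb against 1.230 and 1.218 kb, a difference of 0.076 kb. These 2 of 7 members with a peak were longer in both I-BET151 libraries than in either DMSO library, against 12.5% of all genes with a peak in the window.

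ERBB2, AREG and EREG were shorter in both I-BET151 libraries, which is 3 of 7 members, or 42.9%, against 44.4% of all genes, so the share was near the background. ERBB2 had 4.579 and 5.132 kb in DMSO and 3.872 and 3.339 kb after I-BET151, a difference of −1.25 kb that fell to −0.183 kb when only peaks nearest to an ERBB2 start were counted. With equal numbers of top-ranked peaks in each library it was −0.768 kb. AREG had 0.652 and 0.738 kb against 0 kb, and EREG 0.282 and 0.284 kb against 0 kb. With equal numbers of top-ranked peaks these differences were −0.412 kb at AREG and 0 kb at EREG. ERBB3 had 3.505 and 3.785 kb in DMSO and 3.788 and 2.886 kb after I-BET151, and the groups overlapped. Over the whole family the covered length was 14.5 ± 0.68 kb in DMSO and 13.0 ± 1.02 kb after I-BET151. The difference of −1.49 kb shrank to −0.0195 kb with equal numbers of top-ranked peaks. With 2 libraries a group, an exact permutation test over the 6 assignments could not go below p = 0.33.

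**Figure D5:**
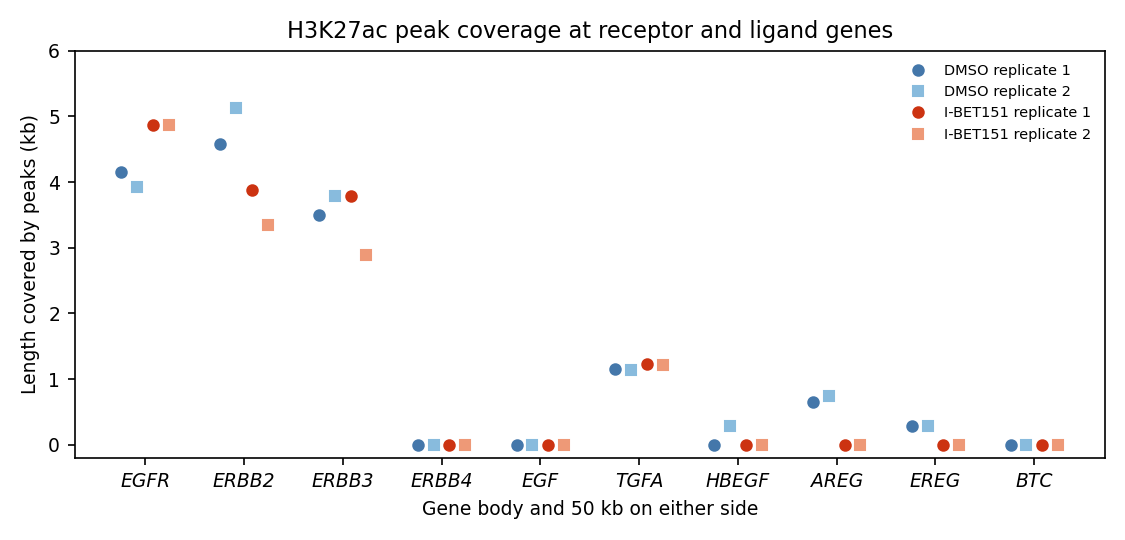
Length covered by H3K27ac peaks (kb) in the window of each member, with each point 1 library. EGFR and TGFA lie higher and ERBB2, AREG and EREG lower in both I-BET151 libraries, and ERBB4, EGF and BTC lie at 0.

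Of 38 other genes of the pathway, 36 had a peak in their window. Among these 5 were longer in both I-BET151 libraries (13.9%), 12 were shorter (33.3%) and 19 overlapped, where all genes gave 12.5% and 44.4%. By role, 1 of 3 other ligands was longer and 1 shorter, 0 and 2 of 4 genes for ligand shedding, 3 and 6 of 19 adaptors and effectors, and 1 and 3 of 10 negative regulators. The median difference was −0.012 kb, against −0.094 kb for all genes with a peak. The ligand genes EPGN and NRG2 had 0 peaks.

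The largest differences in this list were mostly in windows shared with other genes. MAP2K2, a kinase of the MAP kinase cascade, had 9.411 and 9.307 kb in DMSO and 6.334 and 6.424 kb after I-BET151, with 2 of its 7 regions nearest to its own start. HRAS, a RAS GTPase, differed by −1.53 kb (1 of 7 regions nearest to its own start), and the kinase genes MAPK3 by −1.28 kb (2 of 6) and AKT1 by −1.10 kb (1 of 8). RHBDF1, a pseudoprotease of ligand release, differed by −1.04 kb (2 of 5). SOCS3, a feedback inhibitor of cytokine signaling, differed by −0.816 kb and had 7 of 9 regions nearest to its own start. NRG3, an ERBB4 ligand, was longer by 0.622 kb, with 1.328 and 1.255 kb in DMSO and 1.923 and 1.904 kb after I-BET151. NRG1, the main ligand of ERBB3, differed by −0.613 kb, with 0.947 and 1.109 kb in DMSO and 0 and 0.830 kb after I-BET151.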

How the data were processed

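H3K27ac ChIP-seq was measured in 4 libraries of PPs derived from MEL1 cells (MEL1 INS GFP/W in the study's methods) (2 DMSO and 2 I-BET151), and titles gave each library's group and number. Per the study's methods and processing notes, the authors aligned reads to hg38 with Bowtie2 (version 2.2.5), removed duplicates and mitochondrial reads, and called peaks per library with MACS2 (version 2.1.2) against the matching input, without pooling replicates. Each deposited list gives the interval, the summit, the fold enrichment (a ratio of ChIP to local background), and −log10 values of p and q, as the p-value and q-value of the authors' peak caller. The score column of the deposited lists and the peak names were not used. The lowest −log10 q was 1.30 to 1.36, and weaker acetylation is left out by this threshold. Duplicate removal caps the height of a peak. The 4 input libraries entered through the authors' peak calling only.

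The lists hold no read counts. ChIP reads and the input level at each summit were worked out from the fold, which MACS2 computes with a pseudocount of 1, and its Poisson p-value. This resolved 99.3 to 99.6% of the peaks of each list, and where only 1 solution existed the reads came out whole for 100% of peaks (tolerance 0.02 reads). Heights are reads per 1000000 ChIP reads of the library. These totals were not counted. They were worked out from the lowest input level, the genome size and the narrowest peak width (247 to 272 bp), taken as the fragment length. Scaled instead by the summed height of shared regions, the start ratios were 1.24 at EGFR, 1.18 at the upstream ERBB2 start, 0.856 at ERBB3 and 0.979 at TGFA. The step was tested on simulated peaks. Inputs held 2.67 to 3.04 M reads, given the genome size of 2.7e+09 bp that MACS2 assumes by default.

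Peaks sharing at least 1 bp were merged, and genes came from GENCODE release 44. A start region lies within 3 kb of a start of a protein-coding transcript of the gene. Promoter sequences came from RefSeq (GRCh38.p14), where 9 of the 10 members matched an entry. The sequence of the distal AREG region is not reported here. The members, the pathway list and the motifs were chosen with earlier results of these data known. All 10 members were named, with every gained, lost or start region, and pathway genes without overlap up to 8 by size of difference. No model was fitted, since the files hold no counts per gene. Alternatives were a −log10 q of at least 5, equal numbers of top-ranked peaks (12312), merging within 500 bp, 50% coverage of a region, windows of 10 and 100 kb, the nearest start, the authors' fold, other scalings, and leaving out each replicate. Counts of shared regions by the authors' fold were added after seeing the data. Python 3.11.15, pandas 2.3.3 and scipy 1.17.1 were used.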

Additional observations from a re-analysis of the deposited data

Results flagged for a closer look

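The inputs showed signal at the starts of the family, as at called starts in general, in libraries that the comparisons used only as background. The input level at a peak summit is given as a multiple of the genome-wide input level of the same library. At EGFR its median was 60.4 (57.7 to 65.8, n = 4 peaks), at ERBB2 38.5 (18.9 to 78.4, n = 8 peaks) and at ERBB3 55.7 (52.9 to 56.9, n = 4 peaks). Among the ligands it was 60.7 at TGFA (44.4 to 79.3, n = 4 peaks), 58.3 at AREG (41.5 to 75.1, n = 2 peaks) and 52.9 at the single HBEGF peak. The genome-wide level was taken as the lowest input level of each library, so no peak stands below it. A level above it is thus no finding by itself. Only the size of the multiples, from 18.9 to 79.3 at these starts, is descriptive. At the start peaks of all genes the median input level was 11 to 15 reads by library. The genome-wide level was 0.246 to 0.306 reads. The family's start peaks had 5 to 24 input reads, so such levels were not particular to the family. The levels come from peaks that passed the threshold, and their source was not tested.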

How the results depend on the processing

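Of 164 values recomputed for 19 results, 140 stayed within the limits set for a change, 23 moved and 1 reversed. The 140 include covered lengths at ERBB4, EGF and BTC, which had no peak to change. They also include counts and covered lengths with the replicate block, which repeat the main values by arithmetic. The 140 are thus no measure of how stable the results were. The reversed value was the height at the upstream ERBB2 start, whose log2 ratio was −0.43 by the authors' fold. By that scale 4 shared regions were higher and 3 lower without overlap, against 4 and 6 by height. These counts by fold, but not the fold ratios at starts, were added after seeing the data. With windows of 10 kb, 1 gained region was left, since the downstream regions fall outside. The gained count was 2 with −log10 q of at least 5, with equal numbers of top-ranked peaks, and with merging within 500 bp. The difference in covered length over the family was −0.0195 kb with equal numbers of top-ranked peaks and −0.1745 kb when only peaks nearest to a member's start were counted, and the cause of the former was not tested. Leaving out 1 replicate in turn gave 3 to 5 gained regions, 6 to 8 lost regions and differences of −2.22 to −0.77 kb, and the 5 gained regions came without I-BET151 replicate 2. The EGFR difference stayed positive, at 0.522 kb with −log10 q of at least 5, 1.26 kb with equal numbers of peaks and 0.201 kb with windows of 10 kb.

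Groups share replicate numbers, but nothing says that a number marks a pair, and the replicate differences of the groups correlated at 0.0617 over all regions. The replicate block left the 3 gained and 6 lost regions and the difference of −1.49 kb unchanged by arithmetic, so it was no check on them. By replicate number, the family differences in covered length were −0.289 kb for number 1 and −2.7 kb for number 2. The lists limit what could be seen, because a weak mark on a high input level stays below the threshold.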
